A study of Mus musculus with 12 samples.

Results

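Interneuron and inhibitory transmission genes were represented by 6 genes, Gad2, Reln, Nos1, Gabra2, Gabrq and Glra3, out of 1017 genes listed in either of the deposited tables. They were taken by gene name, wherever a table held a row for them, and were chosen with earlier results of these data known. The hippocampus table listed 5 of the 6 among 652 genes (Gad2, Reln, Nos1, Gabrq and Glra3), and the cortex table listed 2 among 561 (Gad2 and Gabra2). Gad2 was the single member among the 196 genes that both tables listed. A member without a row in a table was not analysed in that tissue.

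The study sequenced RNA of the hippocampus and cortex of mice without the BK channel, the large conductance potassium channel opened by calcium and voltage, to see which transcripts differ from wild type. There were 4 groups of 3 libraries, 12 in all, named WT hippocampus, BK KO hippocampus, WT cortex and BK KO cortex. All mice were adults of strain C57BL/6, and no drug or other treatment was given in the labels. The BK KO mice (kcnma1-/-) carried a deletion in Kcnma1, the gene of the pore-forming channel subunit, made by CRISPR/Cas9 and inherited by every cell, and the WT mice (kcnma1+/+) came from the same heterozygous crosses. The model is thus constitutive, and the mice developed without the channel. Whole hippocampus and whole cortex were used, so each library mixes all cell types of the tissue. The labels do not name the animal behind each library, and p-values below measure only the spread between these libraries.

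GABA is the main inhibitory transmitter of the forebrain. It is made from glutamate by glutamate decarboxylase, is released by interneurons, and opens chloride channels built from GABA-A receptor subunits, while glycine receptors form related chloride channels that are most abundant in spinal cord and brainstem. Interneurons make up a minority of hippocampal and cortical neurons, and their subtypes are told apart by products such as reelin, neuronal nitric oxide synthase and several neuropeptides. BK channels shorten action potentials and limit or sustain firing depending on the neuron.

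Each table gave 1 value per library, taken as FPKM, fragments scaled to the length of the transcript and to the size of the library, so that levels may be compared between genes. Each table listed only genes that the authors had called different between BK KO and WT in that tissue, where the fold change exceeded 1.5 and the unadjusted p-value was below 0.05. The genotype contrast is therefore what put every gene in its table. The p-values and counts of that contrast given below describe the listed genes and are no independent test. Here each tissue was fitted with limma on log2(FPKM + 1), and past the threshold means an unadjusted limma p-value under 0.05 together with a log2 fold change beyond 0.58 either way. The disrupted gene, Kcnma1, was lower in every BK KO library than in every WT library of the same tissue, with means of 2.73 against 10.5 FPKM in hippocampus and 2.94 against 11.2 FPKM in cortex.

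The start of each gene is shown for the 4 members whose levels the results turn on most. The changes are in RNA level, and the region before the start is only one of the places where transcription is set. The sequences are the 250 bases before the annotated start in RefSeq for GRCm38.p6, written along the gene's own strand from 5′ to 3′, and all 6 members had an entry. Gad2 was at chr2:22622077-22622326 on the plus strand, Reln at chr5:22344706-22344955 on the minus strand, Nos1 at chr5:117866589-117866838 on the plus strand and Gabra2 at chr5:71095850-71096099 on the minus strand. Capitals mark letters that matched one of the motifs searched on both strands.
Gad2: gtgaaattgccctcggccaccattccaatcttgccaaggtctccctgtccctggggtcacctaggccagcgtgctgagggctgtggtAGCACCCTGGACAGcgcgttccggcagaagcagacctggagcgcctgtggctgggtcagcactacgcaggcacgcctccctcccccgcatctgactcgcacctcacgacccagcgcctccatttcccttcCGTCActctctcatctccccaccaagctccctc
Reln: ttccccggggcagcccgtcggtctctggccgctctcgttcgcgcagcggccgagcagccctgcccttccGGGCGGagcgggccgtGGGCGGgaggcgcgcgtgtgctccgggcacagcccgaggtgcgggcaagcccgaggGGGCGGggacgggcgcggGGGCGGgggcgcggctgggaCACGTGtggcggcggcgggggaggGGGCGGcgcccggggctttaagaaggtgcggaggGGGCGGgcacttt
Nos1: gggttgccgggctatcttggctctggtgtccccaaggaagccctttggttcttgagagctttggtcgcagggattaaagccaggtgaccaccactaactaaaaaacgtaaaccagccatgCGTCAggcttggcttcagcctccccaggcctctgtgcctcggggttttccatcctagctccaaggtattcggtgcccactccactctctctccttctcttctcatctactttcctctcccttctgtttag
Gabra2: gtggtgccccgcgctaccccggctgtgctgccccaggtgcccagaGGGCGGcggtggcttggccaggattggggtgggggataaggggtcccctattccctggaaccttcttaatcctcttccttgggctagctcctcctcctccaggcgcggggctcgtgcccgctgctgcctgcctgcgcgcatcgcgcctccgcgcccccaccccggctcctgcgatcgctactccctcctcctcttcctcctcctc

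The Gad2 window held AGCACCCTGGACAG from base -163 to base -150 before the start. This is the pair of blocks AGCACC and GGACAG with 2 bases between them, the core of the RE1 element to which the repressor REST binds in many neuronal genes. Only 15 of the 32851 promoter windows of this length in the table, 0.0457%, held that pair, and among the 6 members Gad2 alone had it. The letters TGACG, the core of the cyclic AMP response element, stood on the opposite strand (CGTCA) in Gad2 and in Nos1, and 17.8% of all windows held them. The full element TGACGTCA was in 0 of the 6 members and in 1.55% of all windows.

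Reln had the window richest in G and C of the 6 members, at 80% of its bases, which was above 98.8% of all windows. Its window held GGGCGG, the GC box read by Sp-family factors, 6 times, and the E-box CACGTG once. The GC box was also in Gabra2, Gabrq and Glra3, and 32.7% of all windows held it, while the E-box was in 6.02%. The homeobox core TAATTA and the TATA letters TATAAA were in none of the 6 member windows, and were in 4.84% and 12.4% of all windows. The motifs were chosen with the sequences in view, the matches are descriptions of letters, and no match was tested against the expression data.

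Gad2 encodes the nerve terminal isoform of glutamate decarboxylase, the enzyme that makes GABA. Its hippocampal FPKM was 12.8, 14.7 and 16.4 across the WT libraries, against 34.1, 37.5 and 29.8 across the BK KO libraries. The lowest BK KO library was 13.4 FPKM above the highest WT library, so the groups were well apart. Mean FPKM was 14.7 ± 1.79 (SD, n = 3) for WT and 33.8 ± 3.84 (SD, n = 3) for BK KO, a ratio of 2.31. The log2 fold change was 1.15 (SE 0.14), with an unadjusted p-value of 7.0e-05 and a Benjamini-Hochberg adjusted p-value of 0.0120 over the 652 listed genes. It stayed between 1.07 and 1.24 when any 1 of the 6 libraries was left out. In whole tissue, more Gad2 cells and more Gad2 RNA per cell cannot be told apart.

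Across the hippocampal members, 4 of 5 were past the threshold, all higher in BK KO mice (Gad2, Reln, Nos1 and Glra3). Of all genes in the hippocampus table, 20.7% were past it upward and 21.9% downward. The groups did not overlap for 3 of the 5 (Gad2, Reln and Nos1), against 79.9% of all genes listed there. Nothing is read from these counts, since the listing and the counts use the same contrast.

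**Figure D1:**
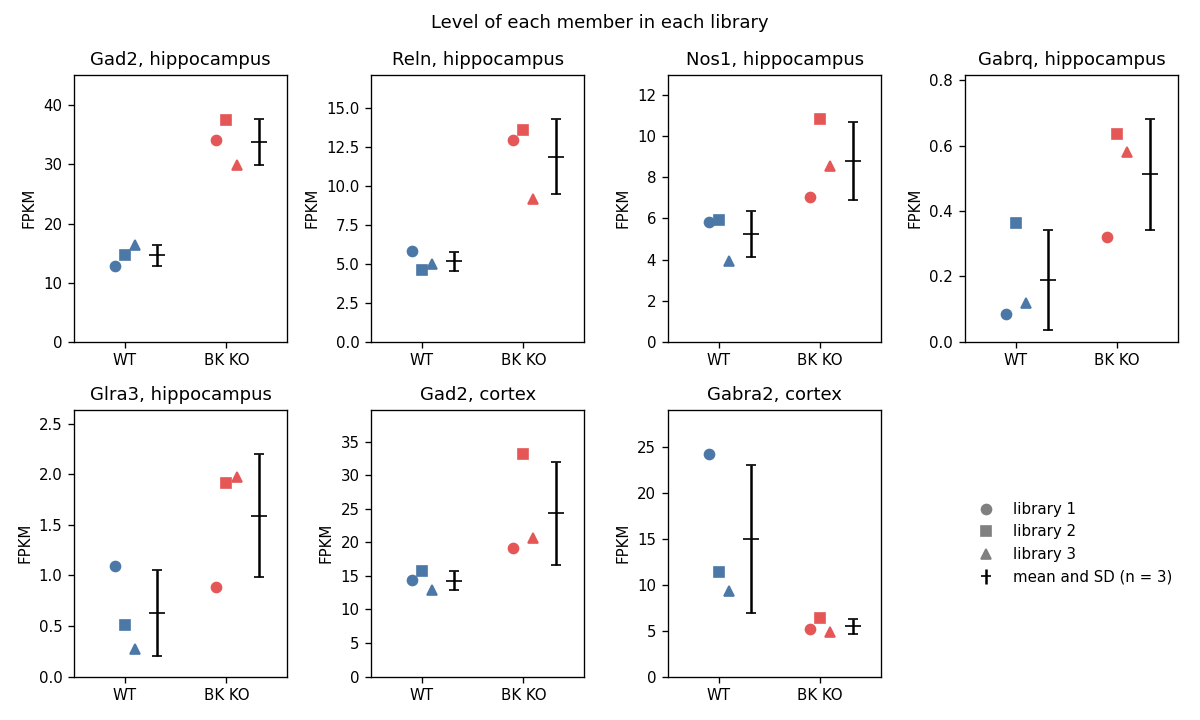
FPKM (vertical axis of each panel, from 0) of the 5 members listed in hippocampus and the 2 listed in cortex, by genotype, where each point is 1 library, its shape the library number, and the bar the mean and SD of 3 libraries. WT and BK KO libraries were apart for Gad2, Reln and Nos1 in hippocampus and for Gad2 and Gabra2 in cortex, and overlapped for Gabrq and Glra3.

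Reln encodes reelin, the secreted glycoprotein that guides neuronal layering in the embryo and in the adult is made by a subset of interneurons and by remaining Cajal-Retzius cells. Hippocampal Reln was 5.81, 4.64 and 5.02 FPKM across the WT libraries, against 12.9, 13.6 and 9.14 FPKM across the BK KO libraries. The groups were 3.33 FPKM apart at their nearest libraries. The means were 5.16 ± 0.597 FPKM (SD, n = 3) and 11.9 ± 2.40 FPKM (SD, n = 3), a ratio of 2.31 as for Gad2. On the log2 scale this was 1.05 (SE 0.17), with an unadjusted p-value of 0.000427 and an adjusted p-value of 0.0142, and it ranged from 0.95 to 1.22 with 1 library left out. The authors also measured hippocampal Reln by RT-PCR, a separate measure of RNA level. They report high concordance for the genes measured, but their text does not name Reln among those that differed significantly.

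Reln was the single listed gene of 20 genes of the reelin pathway, which also holds its receptors and the adaptor Dab1, and the single listed gene of 12 Cajal-Retzius cell markers. The other markers of these cells, such as Trp73 and Lhx1, had no row in the hippocampus table and were not analysed here.

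Nos1 encodes neuronal nitric oxide synthase, which in hippocampus and cortex is a marker of several interneuron subtypes. Across the WT libraries Nos1 had 5.85, 5.91 and 3.93 FPKM, and across the BK KO libraries 7.05, 10.8 and 8.56 FPKM. The nearest libraries of the 2 groups were 1.14 FPKM apart. Mean FPKM was 5.23 ± 1.13 (SD, n = 3) for WT and 8.81 ± 1.90 (SD, n = 3) for BK KO, a ratio of 1.68. Nos1 had a log2 fold change of 0.65 (SE 0.20, unadjusted p = 0.0126, adjusted p = 0.0269). It was 0.49 without WT library 3 and 0.51 without BK KO library 2, both under the 0.58 threshold.

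Of 23 genes of the nitric oxide and cyclic GMP pathway, Nos1 and Pde1c were listed in hippocampus. Pde1c, a phosphodiesterase activated by calcium and calmodulin that breaks down cyclic nucleotides, had 0.346, 0.460 and 0.572 FPKM in WT and 1.26, 0.722 and 0.827 FPKM in BK KO libraries. These groups did not overlap, but the log2 fold change of 0.40 (SE 0.14) was not past the threshold, which it passed with a pseudocount of 0.1.

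Glra3 encodes an alpha subunit of the glycine receptor. Its WT libraries were at 1.10, 0.511 and 0.271 FPKM and its BK KO libraries at 0.890, 1.91 and 1.97 FPKM. BK KO library 1 was below WT library 1, so the groups overlapped. The means were 0.626 ± 0.424 FPKM (SD, n = 3) and 1.59 ± 0.609 FPKM (SD, n = 3). Glra3 had a log2 fold change of 0.67 (SE 0.25, unadjusted p = 0.0295, adjusted p = 0.0444), on a scale that understates the change of genes with so low a level. The unadjusted p-value rose above 0.05 without WT library 2 (0.0806), WT library 3 (0.0939), BK KO library 2 (0.0959) or BK KO library 3 (0.0968), and with the replicate number as a block (0.0642). Of 7 genes of glycine receptors and glycine transport, Glra3 alone was listed, and only in hippocampus.

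Gabrq encodes the theta subunit of the GABA-A receptor, which is best known from hypothalamus and brainstem. It had the lowest level of the members, at 0.0834, 0.364 and 0.119 FPKM in WT and 0.319, 0.635 and 0.581 FPKM in BK KO libraries. WT library 2 was above BK KO library 1, so these groups overlapped too. The log2 fold change was 0.35 (SE 0.14, unadjusted p = 0.0434, adjusted p = 0.0552), which was not past the threshold. With a pseudocount of 0.1 in place of 1 it was 1.16 (adjusted p = 0.0257) and past it. The authors' base mean, the read count divided by a size factor and averaged over a group, was 29.4 for Gabrq and 34.7 for Glra3 in WT hippocampus, against 4047 for Gad2, so both rested on few reads.

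In order of level in WT hippocampus, Gad2 came first, followed by Nos1 and Reln, then Glra3 and Gabrq. The ranges of Nos1 and Reln overlapped in WT and in BK KO mice, and those of Glra3 and Gabrq overlapped in WT mice. In BK KO mice Glra3 was above Gabrq in all 3 libraries of each. BK KO library 2 had the highest value of the 6 libraries for Gad2, Reln, Nos1 and Gabrq, and BK KO library 3 had it for Glra3.

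**Figure D2:**
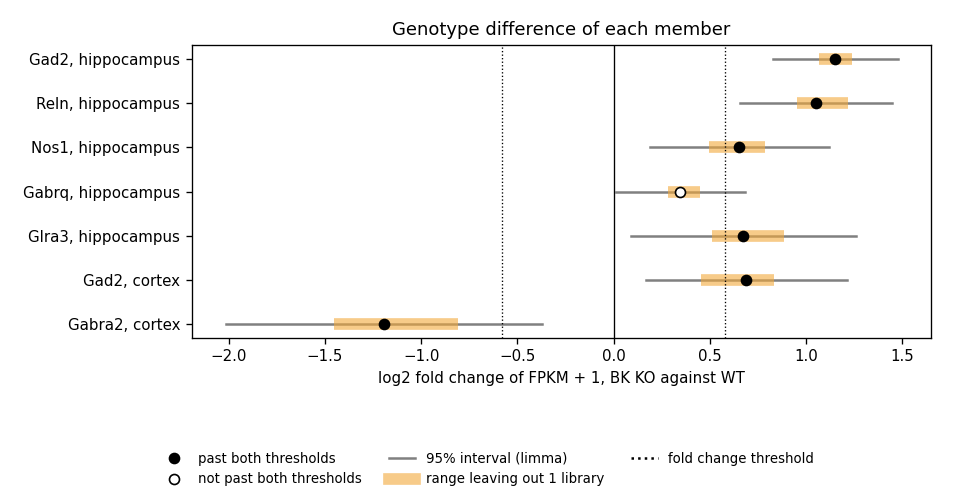
Log2 fold change of FPKM + 1 (horizontal axis), BK KO against WT, for each member and tissue, where points are limma estimates, thin lines their 95% intervals, thick bars the range when 1 of 6 libraries is left out, and dotted lines the fold change threshold. The thick bar of Gad2 in hippocampus spanned 1.07 to 1.24, and Gabra2 in cortex was the single member below 0, at -1.19.

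Cortical Gad2 was 14.3, 15.6 and 12.9 FPKM across the WT libraries, against 19.1, 33.1 and 20.6 FPKM across the BK KO libraries. The groups did not overlap, and BK KO library 2 stood well above the other 2 of its group. The means were 14.3 ± 1.38 FPKM (SD, n = 3) and 24.3 ± 7.69 FPKM (SD, n = 3), a ratio of 1.70. Cortical Gad2 thus had a log2 fold change of 0.69 (SE 0.21, unadjusted p = 0.0178, adjusted p = 0.0388). The call was lost without BK KO library 2 (0.45) and without WT library 3 (0.62, unadjusted p = 0.0571). Of the limma fits that left out 1 library, only that without BK KO library 1 kept the adjusted p-value under 0.05 (0.0399). With the replicate number as a block the adjusted limma p-value was 0.0533. Both cortical members were past the threshold and neither overlapped, with Gad2 higher and Gabra2 lower in BK KO mice. Of all genes in the cortex table, 10.9% were past it upward, 20.0% downward, and 80.6% had groups that did not overlap. Centring each cortex library on the median of its listed genes raised every log2 fold change by 0.24 and turned the split from 61 higher and 112 lower to 129 higher and 33 lower. Gad2 was then at 0.93 and Gabra2 at -0.95, still past the threshold in opposite directions.

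The tissue contrast played no part in the listing, so it could be tested for Gad2 in a fit of all 12 libraries over the 196 shared genes. Both tissues were taken from the same mice, but the labels do not tie the libraries to animals, and the fit treats them as independent. Deviations from the group means in hippocampus and cortex libraries of the same number correlated at 0.511, 0.655 and 0.551 in BK KO and at -0.000417, 0.494 and 0.0242 in WT mice. The WT tissues differed by 0.03 (hippocampus minus cortex, 95% interval -0.37 to 0.44, adjusted p = 0.996). In this limma contrast the adjusted p-value was under 0.05 for 0 (0%) of the 196. The unadjusted one was under 0.05 for 3, where 9.8 are expected without any difference. In ascending order, the Gad2 levels were those of WT cortex, WT hippocampus, BK KO cortex and BK KO hippocampus. The WT groups overlapped, every BK KO library was above every WT library, and the highest BK KO cortex library, at 33.1 FPKM, lay within the BK KO hippocampus range of 29.8 to 37.5 FPKM.

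The genotype difference of Gad2 was 0.46 larger in hippocampus than in cortex (95% interval -0.11 to 1.04, unadjusted p = 0.104, adjusted p = 0.998). In BK KO mice alone Gad2 was 0.50 higher in hippocampus than in cortex (95% interval 0.09 to 0.90, unadjusted p = 0.0212, adjusted p = 0.904). In that BK KO contrast the unadjusted limma p-value was under 0.05 for 6 of the 196, where 9.8 are expected without any difference. The adjusted one was under 0.05 for 0. With libraries of the same genotype and number as a block, the difference in genotype effect had an unadjusted p-value of 0.0510. A larger rise in one tissue was not shown by these tests. For the difference in genotype effect, the adjusted limma p-value was under 0.05 for 0 (0%) of the 196, and the unadjusted one also for 0. Here too 9.8 unadjusted ones are expected without any difference. The genes of this set were all listed for changes in both tissues, which favours genes that change alike. The lack of a difference here therefore does not show that the rises were equal. Without BK KO cortex library 2 the difference was 0.70 (unadjusted p = 0.00402, adjusted p = 0.788).

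Gabra2 encodes an alpha subunit of the GABA-A receptor, found at many synapses on principal neurons and at the start of their axons. Cortical Gabra2 was 24.2, 11.4 and 9.33 FPKM across the WT libraries, against 5.20, 6.42 and 4.86 FPKM across the BK KO libraries. The groups were 2.92 FPKM apart at their nearest, and WT library 1 stood far above the other 2 WT libraries. The means were 15.0 ± 8.08 FPKM (SD, n = 3) and 5.49 ± 0.817 FPKM (SD, n = 3). Its log2 fold change was -1.19 (SE 0.34, unadjusted p = 0.0119, adjusted p = 0.0324), and it was -0.81 (unadjusted p = 0.00298) without WT library 1. Gabra2 was the single listed gene of 19 GABA-A receptor subunits in cortex.

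Skeletal muscle markers moved with Gabra2. Of 20 such genes the cortex table listed 15, all lower in BK KO mice and 9 of them past the threshold (14 with a pseudocount of 0.1), with a median log2 fold change of -0.68 against -0.33 over all listed genes. Of all genes in the cortex table, 20.0% were past the threshold downward. The summed level of the 15 markers was 91.7, 33.8 and 28.2 FPKM in WT and 9.84, 8.43 and 7.56 FPKM in BK KO libraries. The 3 WT libraries had the same order for Gabra2 and for this sum, with library 1 highest in both, and the 3 BK KO libraries did not.

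The 3 listed genes whose log2 levels were most like Gabra2 over the 6 cortex libraries, among 345 with a mean of at least 1 FPKM, were all of that list. They were Mylpf, a fast muscle myosin light chain (r = 0.989), Acta1, skeletal actin (r = 0.977), and Atp2a1, the muscle calcium pump (r = 0.977). Every gene compared was listed for a difference between the same 2 groups, which raises each of these correlations. Mylpf itself was at 8.57, 2.85 and 2.25 FPKM in WT and 0.111, 0.384 and 0.0599 FPKM in BK KO libraries. Mylk2, another defining gene of the list, was at 0 in all BK KO libraries, but only at 0.143, 0.121 and 0.0349 FPKM in WT libraries. Ckm was at 13.9, 3.15 and 3.47 FPKM in WT libraries and at 0 in 1 BK KO library. Without WT library 1 both Gabra2 and the marker sum were still higher in WT. The part of muscle RNA in the Gabra2 values was not tested.

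**Figure D3:**
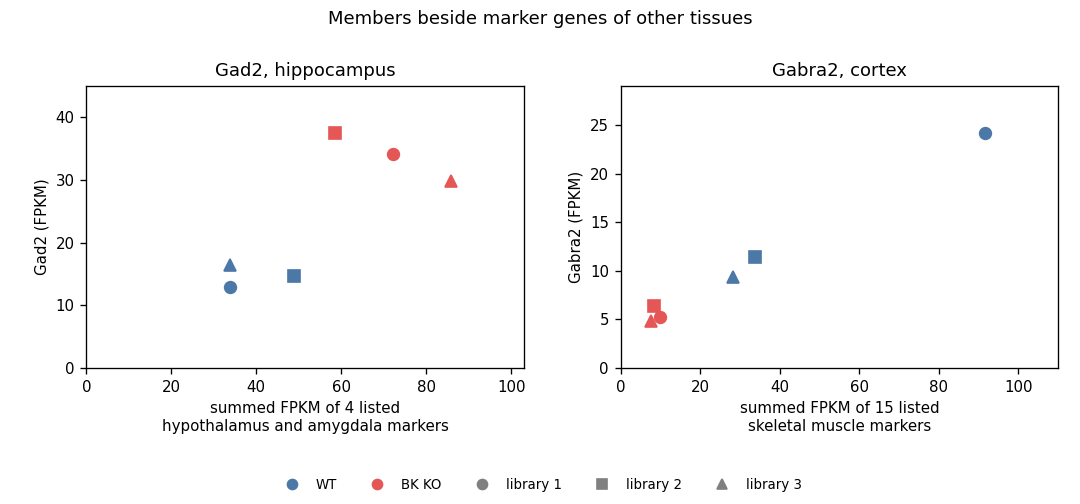
FPKM of a member (vertical axis) against the summed FPKM of a marker list (horizontal axis) in each of 6 libraries, coloured by genotype, with Gad2 and 4 hypothalamus and amygdala markers in hippocampus on the left and Gabra2 and 15 skeletal muscle markers in cortex on the right. On the right WT library 1 is highest on both axes, at 24.2 and 91.7 FPKM, and on the left the BK KO library with the lowest marker sum, 58.5 FPKM, has the highest Gad2, 37.5 FPKM. Most of the marker sum on the left is Hap1.

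In hippocampus, markers of neighbouring brain regions were higher in BK KO mice together with the members. Of 20 hypothalamus and amygdala markers the table listed 4, Trh (thyrotropin-releasing hormone), Gpr101, Hap1 and Peg10, and all 4 were past the threshold with groups that did not overlap. Of all genes listed in hippocampus, 20.7% were past the threshold upward and 79.9% had groups that did not overlap. Their summed level was 33.8, 49.0 and 33.9 FPKM in WT and 72.2, 58.5 and 85.9 FPKM in BK KO libraries. Hap1 made up most of this sum, at 30.6, 40.2 and 28.9 FPKM in WT and 54.5, 41.8 and 68.3 FPKM in BK KO libraries. Among the BK KO libraries the order of the sum, which was that of Hap1, was the reverse of the order of Gad2. The other markers had other orders. Peg10 was highest in BK KO library 2, as Gad2 was, Gpr101 in library 3 and Trh in library 1. Among the WT libraries Gabrq and the sum of the 4 markers were both highest in library 2, and the sums of libraries 1 and 3 were nearly equal. Among the BK KO libraries Gabrq was also highest in library 2, where the sum was lowest. Trh was at 0.345, 3.43 and 2.09 FPKM in WT and 11.6, 4.09 and 7.33 FPKM in BK KO libraries. The remaining 16 markers of this list were not listed, and the part of these regions in the members' values was not tested.

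Markers of other cell types were also listed in hippocampus, where 20.7% of all listed genes were past the threshold upward and 21.9% downward. All 5 listed of 12 endothelial and mural cell markers were lower in BK KO mice, 2 of them past the threshold (Tie1 and Vtn) and all 5 with a pseudocount of 0.1, and their sum was 65.1 to 68.7 FPKM in WT and 39.1 to 47.8 FPKM in BK KO libraries. Wfs1, a marker of CA1 pyramidal cells, was higher at 75.9, 124 and 80.1 against 52.6, 33.9 and 29.8 FPKM. Rorb and Fezf2, also of the pyramidal and granule cell list, were not past the threshold, and neither was Olig2, 1 of 10 oligodendrocyte lineage markers. With a pseudocount of 0.1 all 3 were past it, as lower in BK KO mice. The astrocyte, microglia, choroid plexus and ependyma, thalamus and skeletal muscle lists had 0 genes in the hippocampus table.

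In cortex other cell types gave few listed genes. Gfap, the astrocyte filament, was past the threshold upward, at 42.5, 50.4 and 23.1 FPKM in WT and 92.2, 82.6 and 50.9 FPKM in BK KO, and so were Wfs1 and Bok of the pyramidal and granule cell list. Itgam of the microglia list and Tek and Tie1 of the endothelial and mural list had log2 fold changes of -0.48, -0.46 and -0.46, which did not pass it, though Tek and Tie1 did with a pseudocount of 0.1. Gfap was past it in 2 of the 6 fits that left out a library. The oligodendrocyte, choroid plexus and ependyma, striatum, thalamus, hypothalamus and amygdala, and Cajal-Retzius lists had 0 genes in the cortex table.

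The other listed genes of GABA metabolism and of the inhibitory postsynapse, Gls2, Slc38a5 and Car2, were lower in BK KO hippocampus. Of 15 genes for GABA synthesis, release and uptake, 3 were listed. Gad2 was higher, and Gls2, a glutaminase that supplies glutamate, was lower, at 5.87, 4.14 and 4.45 against 9.14, 6.28 and 9.38 FPKM in WT libraries, with a log2 fold change of -0.66 (SE 0.18). Slc38a5, a glutamine transporter, was lower by a log2 fold change of -0.59 (SE 0.24) with overlapping groups. Of 16 genes of the inhibitory postsynapse and chloride transport, Car2, a carbonic anhydrase also abundant in oligodendrocytes, was lower, at 54.3, 51.0 and 55.0 against 75.0, 82.4 and 105 FPKM. None of the 6 GABA-B receptor genes was listed in either tissue.

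Interneuron products went both ways. Of 36 such genes 6 were listed in hippocampus, all past the threshold, against 20.7% of all genes listed there upward and 21.9% downward. Nothing is read from this count, since the listing used the same contrast. Reln, Nos1, Tac1 and Tacr1 were higher in BK KO mice, and Lamp5 and Rspo1 were lower. Lamp5, a marker of neurogliaform interneurons that excitatory neurons also express, was at 66.0, 35.6 and 64.6 FPKM in WT and 43.8, 23.4 and 25.4 FPKM in BK KO libraries, with overlapping groups. Rspo1, a secreted Wnt pathway agonist, was at 11.1, 5.52 and 7.57 FPKM in WT and 3.66, 3.16 and 1.73 FPKM in BK KO libraries, which did not overlap.

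Tac1, the precursor of substance P, and Tacr1, the substance P receptor, differed among the WT libraries. Tac1 was at 3.97, 3.29 and 26.6 FPKM in WT and 36.4, 18.9 and 28.2 FPKM in BK KO libraries. Tacr1 was at 0.162, 0.233 and 1.76 FPKM in WT and 2.91, 1.85 and 1.65 FPKM in BK KO libraries. For both genes WT library 3 lay within the BK KO range, whereas for Gad2 and Reln it lay with the other WT libraries. Tac1 is also the 1 listed gene of 11 striatum markers.

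Of 24 interneuron transcription factors, 2 were listed in hippocampus. Nr2f2, a factor of interneurons from the caudal ganglionic eminence, was past the threshold at 0.71 (SE 0.29), with 2.10, 4.89 and 5.97 FPKM in BK KO against 2.17, 2.09 and 1.97 FPKM in WT libraries. BK KO library 1 was within the WT range for this gene. Satb1, needed by interneurons from the medial ganglionic eminence, had a log2 fold change of -0.47 (SE 0.18) and was not past it. The most used markers of interneuron classes, Gad1, Pvalb, Sst, Vip, Npy, Slc32a1 and Lhx6, had no row in either table and were not analysed here.

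Several of these calls rested on single libraries. With each of the 6 libraries left out in turn, Slc38a5, Lamp5 and Tacr1 were past the threshold in 2 of the 6 fits, and Tac1 and Nr2f2 in 1.

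Over the union of these 7 lists, 14 of 123 genes were listed in hippocampus, 7 past the threshold upward and 5 downward. Of all genes listed there, 20.7% were past the threshold upward and 21.9% downward. Without the members there were 9 listed of 117, with 3 past it upward and 5 downward, and their median log2 fold change was -0.59 against -0.27 over all 652 listed genes. The hippocampal members were all higher in BK KO mice, so taking them out lowers this median, which was 0.50 with them. Nothing is read from it. In cortex 6 of 123 were listed, 2 past the threshold in each direction, against 10.9% upward and 20.0% downward of all genes listed there. Without the members there were 4 of 117, Crhbp upward, Car2 downward, and Slc38a5 and St18 not past it, although both were with a pseudocount of 0.1. Crhbp, the binding protein of corticotropin-releasing hormone found in a set of interneurons, was at 11.9, 9.78 and 10.5 FPKM in WT and 19.2, 29.2 and 15.9 FPKM in BK KO cortex, and like Gad2 it was highest in BK KO library 2.

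**Figure D4:**
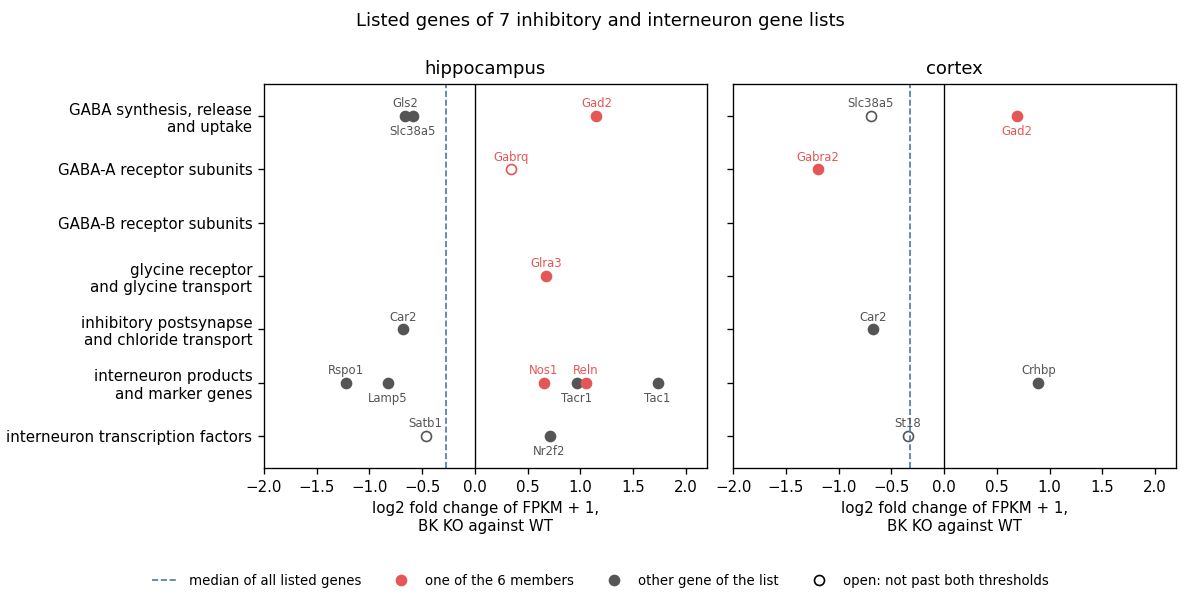
Log2 fold change of FPKM + 1 (horizontal axis), BK KO against WT, of each listed gene of 7 inhibitory and interneuron gene lists (vertical axis) in hippocampus and cortex, with the 6 members in red, other genes in grey, open points not past both thresholds, and the dashed line at the median of all listed genes, -0.27 and -0.33. The red points lie to the right of 0 except Gabra2 in cortex at -1.19, and the grey points lie on both sides. Nothing is read from this split, since the members were chosen with earlier results of these data known.

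The tables also carried pathway annotation from KEGG, a catalogue of curated pathways. The term GABAergic synapse held 7 of the listed hippocampus genes, of which 4 were higher and 3 lower in BK KO mice, with Gad2 and Hap1 past the threshold upward and Gls2 and Slc38a5 downward. In cortex it held 4, Gad2 past the threshold upward, Gabra2 past it downward, and Adcy4 and Slc38a5 past neither. Gabrq and Glra3 were among the 21 hippocampus genes of the term neuroactive ligand-receptor interaction, 6 of which were past the threshold upward and 5 downward. Over all listed genes the shares were 20.7% upward and 21.9% downward in hippocampus, and 10.9% and 20.0% in cortex. Nothing is read from these counts.

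The listed hippocampus genes most like each member were found by Pearson correlation of log2 levels over the 6 libraries, among 443 genes with a mean of at least 1 FPKM. All were listed for a difference between the same 2 groups, which raises every such correlation. For Gad2 they were Sv2c, a synaptic vesicle protein (r = 0.998), Smpdl3b (r = 0.994) and Slc24a4, a sodium, calcium and potassium exchanger (r = 0.991). For Reln they were Snx7 (r = 0.989), Scg2, a secretory granule protein (r = 0.968), and Slc16a14 (r = 0.968). Sv2c, the closest of these, was at 2.80, 3.08 and 3.83 FPKM in WT and 10.3, 11.5 and 8.14 FPKM in BK KO libraries, and so had the same order of libraries as Gad2.

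For Nos1 the closest were Ncam2, a neural cell adhesion molecule (r = 0.994), Apaf1, the scaffold of the apoptosome (r = 0.981), and Nnat (r = 0.972). Gabrq was most like Slc7a14 (r = 0.993), Tmem117 (r = 0.984) and Grin2b, an NMDA receptor subunit (r = 0.981). Glra3 was most like Uhmk1 (r = 0.989), Nov (r = 0.978) and Camk2d, a calcium and calmodulin dependent kinase (r = 0.976). No gene was among the 3 closest of more than 1 member. In cortex Gad2 was most like Sdk1, a synaptic adhesion protein (r = 0.994), Trnp1 (r = 0.977) and 6430548M08Rik (r = 0.976), which again followed BK KO library 2 as the highest.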

How the data were processed

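RNA of hippocampus and cortex from 3 WT and 3 BK KO mice was sequenced from poly-A NEBNext libraries. For each tissue the authors deposited a table of the genes they had called with DESeq 1.10.1 (DESeq2 is also named), and the submitters' processing notes give build mm9. The aligner and counter are not given in the sources used here. Values per library in the deposited tables are read here as FPKM, from their digits and their relation to transcript length. The deposited base means are a normalized signal, and the authors' folds and p-values were not used. All library columns were matched to samples by name, and 0 were left unmatched. The depth per library is unknown, so no counting interval is given.

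The 6 libraries of a tissue entered 1 limma fit (version 3.58.1, R 4.3.3) of log2(FPKM + 1), without a filter, covariate or block, and p-values were adjusted by Benjamini-Hochberg over the whole table. The threshold was an unadjusted p-value under 0.05 combined with an absolute log2 fold change over 0.58. Gad2 was also compared across tissues in a fit of all 12 libraries. An exact permutation test of 3 against 3 libraries cannot give a p-value under 0.1, so none was run. The fit was tested on simulated data. Python 3.11.15 with pandas 2.3.3 and matplotlib 3.10.9 did the rest. No pair of libraries shared values in a way that would point to 1 library deposited more than once.

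The members and the 20 gene lists were chosen with earlier results of these data known. Named genes were the members, Kcnma1, list genes, and for each member the 3 listed genes with the highest correlation. The alternatives were pseudocounts of 0.1 and 0.5, a minimum mean of 1 FPKM, limma with trend and robust estimation, the replicate number as a block, median centring, other thresholds, and leaving out each library. Promoter windows came from RefSeq for GRCm38.p6. Of the transcript versions listed, 55.7% in hippocampus and 50.6% in cortex were in that annotation, so no positions other than those of these windows are given. A gene of the marker lists is not reported here.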

Additional observations from a re-analysis of the deposited data

How the results depend on the processing

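Of the members' fold changes under each alternative, none changed direction. Gad2 and Reln in hippocampus and Gabra2 in cortex stayed past the threshold, which uses the unadjusted p-value, in every fit. The adjusted limma p-value of cortical Gabra2, 0.0324 in the main fit, was 0.0605 with median centring and 0.0535 with the replicate block. It was also above 0.05 without WT library 2 (0.0591) and without BK KO library 1 (0.0629), 2 (0.0646) or 3 (0.0779). The count of hippocampal members past it was 4, ranged from 2 to 4 with 1 library left out (2 without WT library 3 or without BK KO library 2), and was 2 with a log2 fold change beyond 1. The count of cortical members was 2, ranged from 1 to 2 with 1 library left out (1 without WT library 3 or without BK KO library 2), and was 1 with a log2 fold change beyond 1. With the replicate number as a block, Glra3 was no longer past the threshold (0.67, unadjusted p = 0.0642), and the hippocampal count was 3. Same-numbered WT and BK KO libraries came from different mice and did not deviate together (r from -0.0685 to 0.0840 in hippocampus and from -0.239 to 0.125 in cortex), and the block moved the count over all listed genes from 278 to 272 in hippocampus and from 173 to 165 in cortex. In the WT tissue contrast, Gad2 ranged from -0.049 to 0.12 with 1 library left out, at -0.049 without WT hippocampus library 3 and -0.04 without WT cortex library 3, and its tissue difference in genotype effect ranged from 0.32 to 0.70. With hippocampus and cortex libraries of the same genotype and number as a block, that difference had an unadjusted p-value of 0.0510. The cause of these changes was not tested. The 3 libraries per group and an unknown depth limit what can be seen, most of all for Gabrq and Glra3.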
